A study of Mus musculus with 29 samples.

Results

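The expression of 10 immune checkpoint genes was examined in mouse bladder cells, in normal urothelium soon after activation of Pparg and in tumors induced by the carcinogen BBN (N-butyl-N-(4-hydroxybutyl)nitrosamine). They are defined by their known function, and the list was set with earlier results of these data known. They comprise 4 ligands (Cd274, which encodes PD-L1, Pdcd1lg2, which encodes PD-L2, Cd80 and Cd86), 5 receptors (Pdcd1, which encodes PD-1, Ctla4, Lag3, Havcr2, which encodes TIM-3, and Tigit) and 1 enzyme (Ido1). All 10 were found among the 35199 genes of the expression tables. The test covered 8 of the 10 at 4 days and in luminal against basal tumors, and all 10 in the other comparisons. None passed in any of the 4 comparisons between groups that the labels assign to libraries. Of all genes tested, 2.85%, 2.2%, 2.53% and 0% passed, and no call among 8 or 10 genes is near these shares. Individual tumors of the same group differed widely.

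Checkpoint receptors sit on T cells and NK cells and dampen their activity when they meet a ligand on a tumor cell or an antigen-presenting cell. PD-1 binds PD-L1 and PD-L2, whereas Ctla4 competes with the activating receptor Cd28 for Cd80 and Cd86. Ido1 acts without a receptor of this kind, by degrading tryptophan. Interferon gamma, released by activated T cells and NK cells, acts through Irf1 among other factors and is a well-known inducer of Cd274 and Ido1. In the bladder, antibodies against PD-1 and PD-L1 are used to treat urothelial cancer.

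In K5VP16;Pparg mutants a Cre recombinase driven by the Krt5 promoter and induced by tamoxifen removes a stop cassette in Rosa26, so that Pparg fused to the VP16 activator is made in basal cells and in their progeny. Gfp-positive urothelial cells of adult mice were sorted 4 days after tamoxifen, without BBN, from mutants (4D Mut, 5 libraries, labelled K5VP16;Pparg+/-) and from controls (4D WT, 4 libraries, labelled wild type, and described in the study's methods as mice with the Cre and the mTmG reporter). Tumor tissue was laser-captured 4 months after induction from mice that had received BBN for 5 months. These comprised basal tumors of mice labelled wild type (Basal Tumor, 3 libraries) and, from K5VP16;Pparg+/- mice, luminal tumors (Luminal Tumor, 3 libraries) and the luminal (Luminal Tumor Top, 3 libraries) and basal-like (Luminal Tumor Bottom, 3 libraries) domains of mixed lesions. A further table holds 8 libraries of wild type urothelium, of which 4 received BBN for 1 month, and the labels set CT103, CT104, CT105 and CT106 against CT097, CT098, CT100 and CT101 without saying which of these received it. The labels do not say whether libraries of a group came from separate animals, so p-values measure the spread between libraries only. Libraries are called here by the names of their columns.

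Values are normalized counts, which summed to between 36520193 and 41435665 per library at 4 days and to between 41697178 and 53904714 in the tumor tables. Luminal tumors (51007932 to 53252995) lay above the basal tumors they were compared with (41697178 to 44654343). Luminal domains (47731703 to 52984337) likewise lay above basal tumors (43223602 to 46690609). The part of these totals in the differences was not tested. Each table was normalized separately, and levels are compared within a table only. How many reads lie behind each value is unknown. Epithelial markers (7 genes, including Krt5 and Epcam) summed to at least 211118 normalized counts in every tumor library and to at least 231291 at 4 days, and Ptprc, the pan-leukocyte gene that encodes CD45, was above 0 in all of these libraries. In whole tissue or sorted pools, fewer cells of a type and less RNA per cell cannot be told apart. Y-linked genes (4 genes summed) lay between 9030 and 9177 normalized counts in 3 of the 4D WT libraries, but at 404 in the fourth, CT063, and between 338 and 395 in the 4D Mut libraries. Sex and genotype thus nearly coincide at 4 days. In the tumor libraries these genes summed to at least 4764 normalized counts throughout.

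The genes lie on 6 chromosomes of the GRCm38 build, with positions from GENCODE M21. Cd274 (chr19:29367455-29388095) and Pdcd1lg2 (chr19:29410919-29471161) are neighbours on the plus strand, 22823 bases apart. Cd80 (chr16:38455561-38496335), Cd86 (chr16:36603869-36666081) and Tigit (chr16:43648867-43664146) share chromosome 16, and Pdcd1 (chr1:94038305-94052553) and Ctla4 (chr1:60887000-60915832) share chromosome 1. Lag3 lies at chr6:124904361-124911705, Havcr2 at chr11:46454935-46481255 and Ido1 at chr8:24584136-24597009. RefSeq promoter sequences (GRCm38.p6, from 250 bases before to 50 after the start) were found for 7 of the 10 genes. These were searched on both strands for the core of the interferon-stimulated response element, GAAANNGAA, which was present in Cd274 and Ctla4 and in 8.56% of 32851 promoters. The GAS element of interferon gamma targets, TTCNNNGAA, was found in none of the 7, against 8.3% of all promoters. An NF-kappaB motif was found in Pdcd1lg2, against 4.51% of all promoters. The half-site of PPAR receptors, AGGTCA, was found in Pdcd1 and Havcr2, 41 and 84 bases before the start, against 16.3% of all promoters. The letters of the response element core and of GAS can overlap, and a match is a description of the sequence only. The 3 promoters with a response element core or an NF-kappaB match are printed 5′ to 3′ on the strand of the gene, with the match in capitals. Cd274 and Ctla4 are shown as the promoters that hold the core, and Pdcd1lg2 as the neighbour of Cd274. The match begins 76 bases before the RefSeq start in Cd274, 244 in Pdcd1lg2 and 166 in Ctla4. The windows are chr19:29367188-29367487, chr19:29410669-29410968 and chr1:60908775-60909074, all on the plus strand, and the RefSeq start of Ctla4 lies inside the GENCODE gene.
Cd274: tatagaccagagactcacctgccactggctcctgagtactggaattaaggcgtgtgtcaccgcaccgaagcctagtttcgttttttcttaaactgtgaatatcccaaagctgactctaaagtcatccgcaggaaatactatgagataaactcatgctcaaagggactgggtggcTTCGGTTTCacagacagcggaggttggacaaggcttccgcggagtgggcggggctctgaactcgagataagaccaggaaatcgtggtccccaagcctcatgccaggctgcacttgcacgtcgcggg
Pdcd1lg2: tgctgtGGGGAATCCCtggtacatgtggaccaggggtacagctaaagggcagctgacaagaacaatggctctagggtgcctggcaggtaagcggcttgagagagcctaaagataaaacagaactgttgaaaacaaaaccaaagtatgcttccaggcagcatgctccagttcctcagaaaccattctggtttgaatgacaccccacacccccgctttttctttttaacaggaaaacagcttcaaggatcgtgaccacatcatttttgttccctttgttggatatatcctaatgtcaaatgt
Ctla4: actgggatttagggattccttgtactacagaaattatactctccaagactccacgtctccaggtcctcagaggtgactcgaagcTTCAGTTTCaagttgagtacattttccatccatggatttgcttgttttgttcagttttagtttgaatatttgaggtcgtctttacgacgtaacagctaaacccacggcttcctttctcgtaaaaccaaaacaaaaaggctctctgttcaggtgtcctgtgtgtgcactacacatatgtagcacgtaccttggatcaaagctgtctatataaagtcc

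The first comparison asked whether activated Pparg altered checkpoint genes in normal basal cells within 4 days. Among the ligands, Cd274 was measured at 308, 302, 357 and 327 normalized counts in the 4D WT libraries and at 187, 149, 361, 497 and 317 in the 4D Mut libraries. The groups overlapped and had similar means, 323 ± 24.9 (SD, n = 4) and 302 ± 140 (SD, n = 5), with a wider spread among mutants. Cd80, the shared ligand of Cd28 and Ctla4, was at 58.9, 35.3, 35.8 and 41.4 in 4D WT and at 148, 72.0, 52.2, 65.4 and 50.2 in 4D Mut. The highest control reached into the range of the mutants, and this control was CT063, the library in which Y-linked genes were as low as in the mutants. The part of sex in this difference was not tested. Cd86 lay between 14.1 and 21.4 in controls and between 5.48 and 20.8 in mutants. Pdcd1lg2 was at 3.84, 3.56, 0 and 0.97 in 4D WT, and was listed at 0 in all 5 mutants.

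The receptors did not exceed 66.8 normalized counts in any of these sorted pools, which also held macrophage and fibroblast transcripts. Pdcd1 was listed at 0 in all 4 controls and at 0.88, 0, 13.1, 8.57 and 0.98 in the mutants. Ctla4 was at 11.7, 38.0, 20.7 and 66.8 in 4D WT and at 14.5, 9.79, 15.2, 32.4 and 13.9 in 4D Mut, so that the groups overlapped. Lag3, a receptor for MHC class II, lay between 8.33 and 20.1 in 4D WT and between 4.41 and 51.6 in 4D Mut. Havcr2 reached 11.4 in controls, with 1 library listed at 0, and lay between 2.05 and 30.2 in mutants. Tigit, which competes with Cd226 for Pvr and Nectin2, lay between 17.3 and 35.0 in 4D WT and between 13.2 and 37.2 in 4D Mut. Ido1 lay between 13.8 and 28.5 in controls and between 16.8 and 39.2 in mutants.

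**Figure D1:**
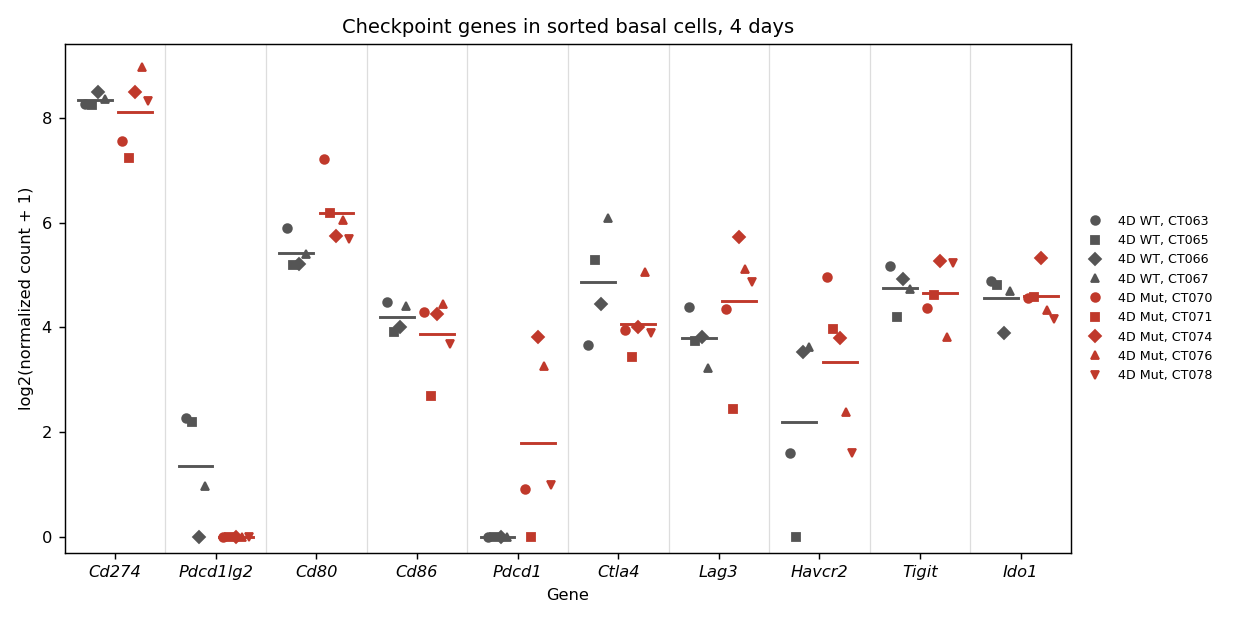
Expression of the 10 checkpoint genes in sorted cells 4 days after tamoxifen, as log2(normalized count + 1) on the vertical axis for each gene on the horizontal axis. Each symbol is 1 library, gray for 4D WT (4) and red for 4D Mut (5), and bars are group means. The groups overlap for every gene, and Pdcd1lg2 is listed at 0 in all 5 mutants.

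Differences in log2(normalized count + 1), on which changes at low levels appear smaller than they are, were tested by limma, and p was adjusted by the Benjamini-Hochberg method over every gene in the test. A gene needed 10 or more normalized counts in a number of libraries equal to the size of the smaller group, which 8 of the 10 reached (not Pdcd1lg2 and Pdcd1). None was called at an adjusted p under 0.05, and none had an unadjusted p under 0.05, against 2.85% of 16413 genes called and 20.8% with such an unadjusted p. No member had groups that did not overlap, as 9.18% of genes did. Of the 8 genes 4 were positive and 4 negative, with a median difference (Mut minus WT) of -0.04. The largest differences were those of Havcr2 (log2 difference 1.16 ± 0.89 SE, limma adjusted p = 0.5), Ctla4 (-0.80 ± 0.52, adjusted p = 0.42) and Cd80 (0.75 ± 0.36, adjusted p = 0.265). The difference for Cd80 fell to 0.49 without CT070, its highest library. With each library left out in turn, Havcr2 ranged from 0.43 to 1.64 and Ctla4 from -1.20 to -0.39. For Cd274 the difference was -0.23, with a 95% interval from -0.96 to 0.50. For single genes an exact two-sided permutation test over the 126 regroupings of the libraries gave p = 0.0476 for Pdcd1lg2, p = 0.0556 for Cd80 and p = 0.127 for Pdcd1, not adjusted over the 10 genes, where the smallest possible p was 0.00794. The test for Pdcd1lg2 rests on values of at most 3.84 normalized counts.

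Among related genes, 30 partners and further checkpoint genes were tested (of 40 listed), 16 positive and 14 negative, with a median of 0.11. Of these 30, 2 were called, both higher in mutants. Nectin3, which encodes an adhesion molecule of the nectin family, rose from 450 to 948 normalized counts (log2 difference 1.13, limma adjusted p = 0.0489). Tdo2, a second enzyme that opens the tryptophan ring, rose from 41.8 to 119 (1.55, adjusted p = 0.039). Nectin3 and Tdo2 were not followed through the alternative fits. Calls over all genes were 147 in the table of 3 against 3 libraries, against 467. They ranged from 129 (without CT066) to 596 (without CT071) with a library left out. Sex and genotype nearly coincide in these libraries, and the part of sex in these 2 calls was not tested. Of the interferon gamma list 29 genes were tested and 25 were positive, with a median of 0.28 against 0.0045 over all genes, and none was called. The list summed to between 39258 and 55963 normalized counts in controls. Of the mutants only CT074 (75551) and CT076 (85622) lay above this range, and the others lay within it. Irf1, an interferon effector, lay between 1095 and 1560 in controls and between 989 and 2537 in mutants. The galectin Lgals9, a ligand of TIM-3, was at 35.2 to 403 in controls and 148 to 997 in mutants (1.85, adjusted p = 0.185). Nectin2, Pvr and Cd28 had log2 differences of 0.09, 0.20 and 0.59.

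No immune marker was called at 4 days. Ptprc lay between 65.0 and 94.6 normalized counts in controls and between 43.9 and 93.4 in mutants. The 14 T cell markers summed to between 288 and 512 in controls and between 319 and 406 in mutants, and none of the 11 tested was called. Cd3e lay between 10.1 and 40.3 in controls and between 9.71 and 16.6 in mutants, and Cd8a between 16.2 and 27.1 and between 9.25 and 29.4. The 12 macrophage markers summed to between 3225 and 4788 and between 2976 and 6173. Csf1r, the receptor of macrophage growth factor, lay between 38.6 and 85.0 in controls and between 61.8 and 318 in mutants, and Itgax between 4.31 and 16.9 and between 0.86 and 37.9. The NK cell gene Ncr1 was listed at 0 in all 9 libraries. The 6 fibroblast markers were all positive, with a median of 2.05 and sums between 8243 and 58876 in controls and between 19855 and 164300 in mutants, and Lum was called. Their part in the values of the checkpoint genes was not tested.

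The next comparison set luminal tumors of K5VP16;Pparg mutants against basal tumors of controls. Among the ligands, Cd274 was at 343, 1545 and 18.5 normalized counts in the basal tumors CT111, CT113 and CT115, and at 34.7, 81.0 and 99.6 in the luminal tumors CT126, CT132 and CT140. The luminal values lay inside the range of the basal tumors, which held both the lowest and the highest value of this gene in the table. Cd80 was at 11.8, 259 and 47.3 in basal tumors and was listed at 0 in all 3 luminal tumors, so that the groups did not overlap. Pdcd1lg2 was at 70.8, 383 and 0 in basal tumors and was likewise listed at 0 in each luminal tumor. Cd86 was at 441, 756 and 17.5 in basal tumors and at 239, 13.4 and 46.6 in luminal tumors.

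CT113 was also the highest basal tumor for all receptors but Tigit. Ctla4 was at 6.70, 1308 and 32.0 in basal tumors and was listed at 0 in all luminal tumors. Pdcd1 was at 22.1, 518 and 38.1, and in luminal tumors at 0, 1.17 and 0. Lag3 was at 5.32, 23.2 and 5.53 in basal tumors and at 2.06, 2.09 and 0 in luminal tumors. These 3 receptors were lower in every luminal than in every basal tumor. Havcr2, which macrophages and dendritic cells express as well as T cells, was at 295, 870 and 80.8 in basal tumors and at 533, 166 and 674 in luminal tumors, with full overlap. Tigit was at 0, 115 and 157 in basal tumors and at 80.1, 1.14 and 11.8 in luminal tumors. Ido1 was at 50.2, 12602 and 7.48 in basal tumors and at 319, 1475 and 174 in luminal tumors, so that each luminal tumor lay above 2 of the basal tumors and below CT113.

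**Figure D2:**
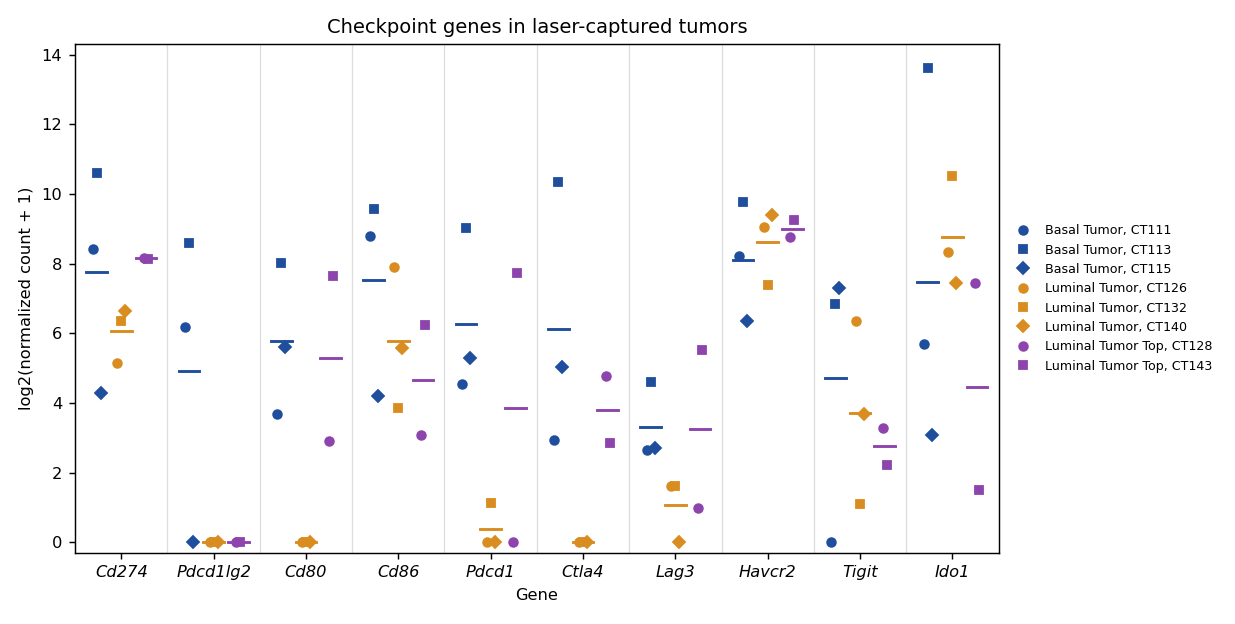
Expression of the 10 checkpoint genes in laser-captured tumors, as log2(normalized count + 1) on the vertical axis for each gene on the horizontal axis. Each symbol is 1 library of the table of Basal Tumor (blue, 3), Luminal Tumor (orange, 3) and Luminal Tumor Top (purple, 2), and bars are group means. Basal tumor CT113 (blue square) is the highest basal library for 9 of the 10 genes, and Cd80 and Ctla4 are listed at 0 in the 3 luminal tumors.

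With limma on the 8 libraries of the table, 8 of the 10 genes were tested (not Pdcd1lg2 and Lag3) and none was called, against 2.2% of 15357 genes. Unadjusted p was under 0.05 for 3 of the 8, against 18.4% of all genes. Of the 10 genes 4 had groups that did not overlap, 3 of them tested (Cd80, Pdcd1 and Ctla4), against 21.5% of all genes tested. Cd80, Pdcd1 and Ctla4, which are also the 3 with an unadjusted p under 0.05, were at or near 0 in every luminal tumor and reached the minimum through basal tumors and luminal domains alone, so that they had to differ, and nothing is read from these counts or from the median over the tested genes. Of the 8 genes 6 were negative (lower in luminal tumors), with a median of -1.73, beside a median of -0.11 over all genes. The adjusted p was 0.112 for Cd80, 0.129 for Ctla4 and 0.175 for Pdcd1. Because luminal values were at or near 0, the size of these differences depends on the pseudocount and is no fold change: for Ctla4 it was -6.11 with a pseudocount of 1, -7.07 with 0.5 and -4.05 with 5. The log2 difference for Cd274 was -1.71 ± 1.48 (SE, limma adjusted p = 0.581), with a 95% interval from -5.03 to 1.61. For Cd86 it was -1.74, for Tigit -1.01, for Havcr2 0.50 and for Ido1 1.30, and every interval included 0.

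The basal tumor CT113 decided the size of several of these values. It was the highest basal library for 9 of the 10 genes, all but Tigit. Without it the log2 difference was -0.30 for Cd274, -0.72 for Cd86 and 4.38 for Ido1, and it was -4.64 for Cd80, -4.54 for Pdcd1 and -3.99 for Ctla4. CT115, the lowest basal library for Cd274, Pdcd1lg2, Cd86, Havcr2 and Ido1, acted the other way: without it Cd274 differed by -3.45, Havcr2 by -0.37 and Ido1 by -0.88. Irf1 was also highest in CT113, at 13643 normalized counts, against 3137 and 1136 in CT111 and CT115. The same library held 1781 normalized counts of Cd8a, the gene of the cytotoxic T cell coreceptor, and 584 of Cd3e, where the other basal tumors held 16.2 and 1.31, and 3.07 and 38.9.

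Among the partners, Nectin2, an epithelial ligand of Tigit, rose from 1180 in basal to 4100 normalized counts in luminal tumors (log2 difference 1.89, limma adjusted p = 0.0426). Ceacam1, a ligand of TIM-3, rose from 1806 to 13049 (3.16, adjusted p = 0.0364). Neither of these genes was followed through the alternative fits, and calls over all genes fell from 338 to 3 without CT126 or CT132. Cd200r1, an inhibitory receptor of myeloid cells, averaged 108 in basal tumors, was listed at 0 in luminal tumors and was called as lower (limma adjusted p = 0.0292). It reached the minimum through libraries outside the luminal tumors alone, so that it had to differ, and nothing is read from this call. Of the 29 partners tested (of 40 listed), 23 were negative, with a median of -1.47. Of the 29 tested genes of the interferon gamma list 26 were negative, with a median of -0.98, and none was called. Irf1 differed by -1.66, Lgals9 by -1.47, Pvr by -0.57 and Cd28 by -0.86, with no call.

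Most immune and stromal markers had negative differences as well, of which few were called. Ptprc was at 1706, 3740 and 907 in basal tumors and at 81.2, 47.7 and 594 in luminal tumors (log2 difference -3.75, limma adjusted p = 0.0915). The macrophage markers summed to between 35734 and 167530 normalized counts in basal tumors and between 4360 and 24747 in luminal tumors, 11 of 12 were negative and Fcgr1, the high-affinity Fc receptor, was called as lower. T cell markers summed to between 787 and 12976 in basal tumors and between 214 and 1337 in luminal tumors, with 9 of 12 negative and none called. Cd8a was at 34.4, 12.7 and 206 in luminal tumors, Cd3e at 53.7, 0 and 152, Csf1r at 692, 16.3 and 231 and Itgax at 52.2, 0 and 230. In basal tumors Csf1r was at 1145, 2018 and 413 and Itgax at 671, 621 and 93.1. Fibroblast markers summed to between 26061 and 42918 in basal tumors and between 144 and 6559 in luminal tumors, with Col1a1, Col1a2 and Pdgfrb called as lower. Uroplakin genes were higher, with Upk1a, Upk2 and Upk3a called. The part of these cell types in the values of the checkpoint genes was not tested.

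Likeness between genes was described over the 8 libraries of this table, among 12274 genes that averaged 100 or more normalized counts, by Pearson's r of log2(normalized count + 1). The libraries fall into 3 groups and share CT113, so that r describes these 8 libraries only. Among so many genes, an r this high can arise over 8 libraries without any relation, which was not tested. Cd274 was most like Nup214 (r = 0.95), H2-T23 (0.94) and Syk (0.94), a nucleoporin, a nonclassical MHC class I gene and a kinase of immune receptors. Cd86 was most like Gpr171 (0.996), Cntln (0.97) and Tlr13 (0.94). Ido1 was most like Bckdhb (0.95), Ap1ar (0.95) and Tcf20 (0.93). Pdcd1lg2 was below the filter in this table.

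The luminal domain of mixed lesions was next set against the same 3 basal tumors, in a table of its own. Cd274 was at 308, 305 and 681 normalized counts in the luminal domains CT128, CT143 and CT148, and at 362, 1598 and 19.3 in the basal tumors. Cd80 was at 7.0, 216 and 5.38 in the domains, above 0 in each, and at 12.5, 267 and 49.2 in basal tumors. Pdcd1lg2 was at 0, 0 and 50.1 in the domains, and Cd86 at 8.14, 83.9 and 269. For each of the 4 ligands the values of the domains overlapped those of basal tumors.

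Among the receptors of the luminal domain, Pdcd1 was at 0, 227 and 227 normalized counts, Ctla4 at 28.3, 6.70 and 62.9, and Lag3 at 1.02, 47.4 and 10.3. Havcr2 was at 463, 667 and 1248 in the domains and at 313, 904 and 84.8 in basal tumors. Tigit was at 9.21, 3.96 and 29.2. Ido1 was at 184, 1.95 and 6093 in the domains and at 52.4, 12897 and 7.72 in basal tumors, with 1 high library in each group. CT148 was the highest of the 3 domains for 7 of the 10 genes and also held the most Irf1 (5991, against 1058 and 1921).

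All 10 genes were tested and none was called by limma, against 2.53% of 14921 genes, and none had an unadjusted p under 0.05, against 20.6%. No member had groups that did not overlap, as 26.8% of genes did. Of the 10 genes 7 were negative (lower in the luminal domain), with a median of -1.17, beside 0.01 over all genes. Pdcd1lg2 had the largest difference (log2 difference -3.06 ± 2.50 SE, limma adjusted p = 0.538) and Havcr2 the smallest adjusted p (1.33 ± 0.90 SE, adjusted p = 0.451). With each library left out in turn, Pdcd1lg2 ranged from -5.53 to -1.22 and Havcr2 from 0.45 to 2.15. The difference was 0.82 for Cd274, with a 95% interval from -2.54 to 4.18, and -0.92 without CT115. Without CT113 it was 0.55 for Ctla4, 0.25 for Pdcd1 and 2.79 for Ido1, where it had been -1.57, -1.11 and -0.28. The basal tumors are those of the comparison with luminal tumors, and CT128 and CT143 are also in that table, so that both comparisons share libraries. No partner (29 tested, 13 positive) and no interferon gamma gene (29 tested, 22 negative) was called. Nectin2 differed by 1.87, Irf1 by -0.79, Lgals9 by 0.09, Pvr by 0.36 and Cd28 by 2.58. Ptprc was at 157, 274 and 760 in the domains and at 1756, 3776 and 924 in basal tumors (-2.51, limma adjusted p = 0.118). Cd3e was at 60.0, 126 and 111 in the domains, Cd8a at 28.9, 170 and 221, Csf1r at 96.0, 377 and 822 and Itgax at 88.0, 81.7 and 163. In basal tumors these were at 3.12, 582 and 39.1, at 16.2, 1748 and 1.30, at 1206, 2083 and 430 and at 713, 648 and 97.9. Macrophage markers were negative for 10 of 12, and fibroblast markers for 6 of 6 (median -2.24). Smooth muscle markers were negative for 4 of 4 (median -6.37), and endothelial markers positive for 2 of 3. Of these only Cnn1, listed at 0 in each luminal domain, was called. It reached the minimum through the basal tumors alone, so that it had to differ, and nothing is read from this call. The part of these cell types in the checkpoint values was not tested.

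In the last comparison the basal-like domain of mixed lesions was set against the luminal domain. Libraries of both domains may come from the same lesions, but the labels tie no library of one to a library of the other, and the comparison is unpaired. Cd86 was at 704, 232 and 715 normalized counts in the basal-like domains CT129, CT144 and CT149 and at 9.04, 94.4 and 302 in the luminal domains. The groups overlapped, with CT144 below the highest luminal domain. Cd80 was at 72.5, 242 and 103 in basal-like and at 7.05, 220 and 5.49 in luminal domains. Cd274 was at 266, 559 and 1173 in basal-like and at 313, 313 and 699 in luminal domains. Pdcd1lg2 was at 22.7, 0.91 and 72.0 in basal-like domains, and at 0, 0 and 50.7 in luminal domains.

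Ctla4 was at 369, 86.2 and 96.5 in the basal-like domains and at 28.5, 6.83 and 64.2 in the luminal domains, and was the member whose groups did not overlap. Pdcd1 was at 78.0, 261 and 870 in basal-like domains and at 0, 232 and 231 in luminal domains. Tigit was at 2.67, 24.5 and 284, and at 9.30, 4.05 and 29.8. Lag3 was at 10.9, 7.28 and 17.9 in basal-like domains and at 1.2, 55.4 and 12.1 in luminal domains, within one range. Havcr2 went the other way, at 793, 190 and 411 in basal-like domains and at 469, 684 and 1279 in luminal domains, again with overlap. Ido1 was at 308, 572 and 19592 in basal-like domains and at 186, 1.99 and 6213 in luminal domains. A single library of each domain, CT149 and CT148, held nearly all of it.

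**Figure D3:**
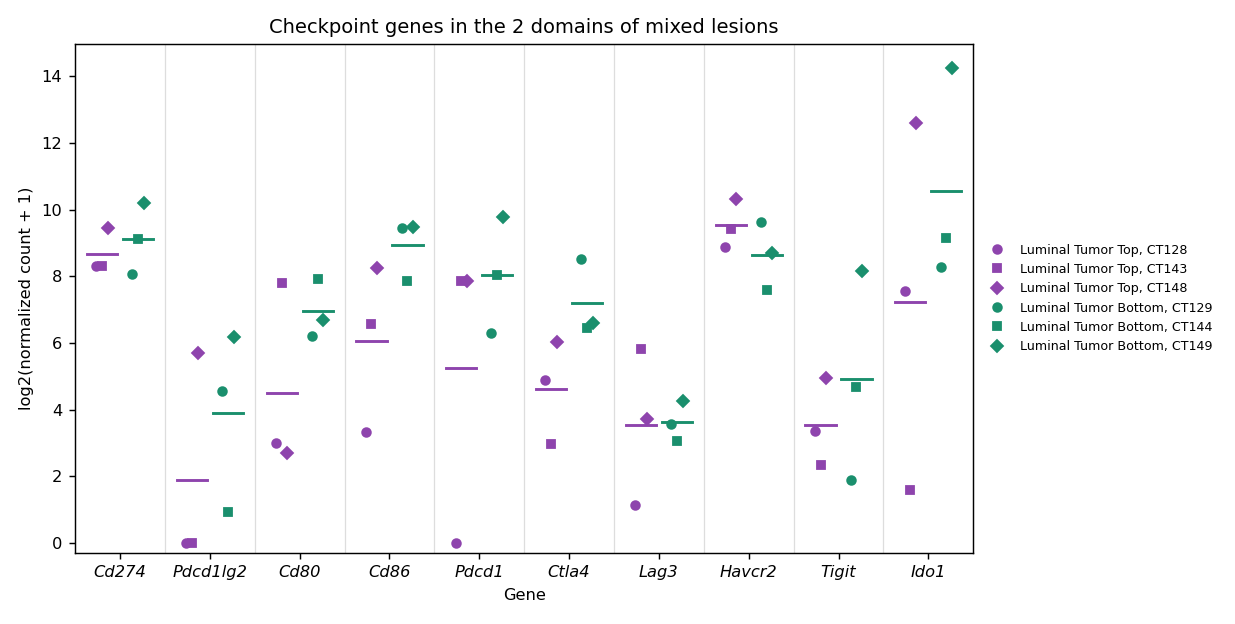
Expression of the 10 checkpoint genes in the luminal domain (Luminal Tumor Top, purple, 3 libraries) and the basal-like domain (Luminal Tumor Bottom, green, 3 libraries) of mixed lesions, as log2(normalized count + 1) on the vertical axis for each gene on the horizontal axis. Each symbol is 1 library and bars are group means. The bar of the basal-like domain is the higher for 9 of the 10 genes, though for Lag3 by 0.07, which reverses with a pseudocount of 5 or quantile scaling, and the groups are separate for Ctla4.

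All 10 genes were tested and 9 were positive (higher in the basal-like domain), with a median of 2.22, beside 0.01 over all genes. None was called, as for all genes (limma, 0% of 14874), and none had an unadjusted p under 0.05, against 757 genes or 5.09%. Groups did not overlap for 1 member, against 10.8% of all genes. Cd86 differed by 2.89 ± 1.25 (SE), with an unadjusted p of 0.0506 and a limma adjusted p of 0.935, and Ctla4 by 2.57 ± 1.15 (0.0569 and 0.935). The difference was 3.32 for Ido1, 2.79 for Pdcd1, 2.44 for Cd80, 2.0 for Pdcd1lg2, 1.35 for Tigit, 0.45 for Cd274 and 0.07 for Lag3, and it was -0.91 for Havcr2. The sign for Lag3 was not stable: its mean was 12.0 normalized counts in the basal-like and 22.9 in the luminal domain, and its difference was -0.17 with a pseudocount of 5 and -0.68 with quantile scaling. Without CT149 it was -0.085 for Cd274, -0.27 for Tigit and 1.47 for Ido1. Without CT128, the luminal domain with the lowest Cd86 and Pdcd1, it was 1.53 for Cd86 and 0.17 for Pdcd1. CT149 was the highest basal-like domain for 7 of the 10 genes.

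**Figure D4:**
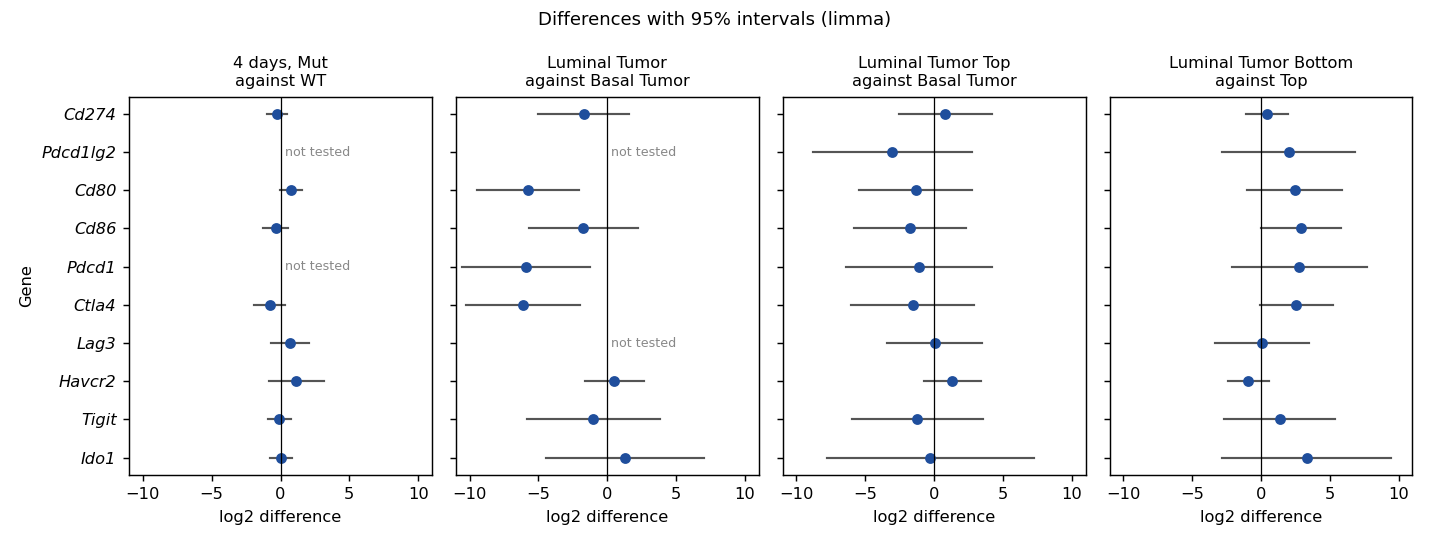
Differences in log2(normalized count + 1) on the horizontal axis for the 10 checkpoint genes (rows) in the 4 comparisons (panels), with points for the limma estimate and lines for its 95% interval. Positive values are higher in the group named first. Intervals are narrower at 4 days than between luminal and basal tumors, and those of Cd80, Pdcd1 and Ctla4 in luminal against basal tumors are the ones that leave out 0, without passing adjustment over all genes, and these 3 genes entered the test through libraries outside the luminal tumors alone.

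Partners and interferon genes of the domains were not called either. Of the 33 partners tested 23 were positive, with a median of 0.85, and of the 29 interferon gamma genes 24 were positive, with a median of 0.81. Irf1 was at 1359, 2932 and 12734 normalized counts in basal-like and at 1069, 1965 and 6123 in luminal domains, highest in CT149 and CT148 as Ido1 was. Nectin2 differed by -0.29, Pvr by -0.83, Lgals9 by -0.14 and Cd28 by 0.85. The T cell markers were positive for 13 of 14, with a median of 1.70 and sums between 2384 and 6266 in basal-like and between 608 and 2428 in luminal domains. Cd3e was at 227, 177 and 311 in basal-like and at 52.7, 112 and 98.5 in luminal domains, and Cd8a at 3.32, 200 and 1207 and at 31.1, 186 and 240. Ptprc was at 1090, 611 and 681 and at 165, 291 and 807, Csf1r at 1183, 604 and 730 and at 98.4, 391.6 and 852, and Itgax at 444, 91.6 and 523 and at 85.6, 80.5 and 160. Their part in the values of the checkpoint genes was not tested.

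In the table of wild type urothelium with or without 1 month of BBN, all 10 genes were measured in the 8 libraries, and no test was made. Cd274 ranged from 294 to 511 normalized counts with a median of 389, Cd80 from 31.8 to 739 (median 148), Cd86 from 14.6 to 203 (median 101) and Pdcd1lg2 from 0 to 74.0 (median 16.8). Pdcd1 ranged from 0 to 199 (median 19.7), Ctla4 from 0 to 117 (median 16.8), Lag3 from 9.95 to 221 (median 52.9), Havcr2 from 13.5 to 691 (median 296) and Tigit from 0.91 to 75.2 (median 21.3). Ido1 ranged from 2.21 to 1146, with a median of 102. The sets of 4 libraries that the labels set against each other did not overlap for 10 of the 10 genes, as for 45.7% of 15905 genes, and no treatment was assigned to either set. Pdcd1lg2, Pdcd1, Ctla4 and Ido1 reached the minimum of 10 normalized counts through 1 set alone, so that they had to differ. Nothing is read from the count over the 10 genes.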

How the data were processed

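RNA of sorted urothelial cells and of laser-captured tumor tissue was sequenced. Per the submitters' processing notes and the study's methods, reads were converted with bcl2fastq 2.20, quantified by kallisto 0.44.0 and summed to genes, and counts were normalized by DESeq2 1.18 within each table. The transcript index is not given in the sources used here. The authors deposited these as normalized counts (signal), whose factors differ between genes, so that reads and depth could not be recovered. The authors' own fold changes and p-values were not used.

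Libraries were mapped to groups by the table membership in their labels. The test was limma 3.58.1 with a trend (R 4.3.3), on values transformed as log2(normalized count + 1), for genes reaching 10 normalized counts in a number of libraries equal to the smaller group. Adjustment covered all genes tested, with a threshold of 0.05. Luminal and basal tumors were fitted together with 2 luminal domain libraries. Single genes at 4 days were compared by exact permutation. The scripts were tested on simulated data. Alternatives were pseudocounts of 0.5 and 5, minimums of 1 and 50, no trend, upper-quartile and quantile scaling, other tables or groupings, and each library left out. Members and lists were chosen with earlier results of these data known. All 10 members were named, with the called genes of 2 lists (at most 6 each), 6 fixed partners and 5 markers, and 3 genes most like a member. Some genes of the lists are not reported singly here. Figures were drawn with matplotlib 3.10.9.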

Additional observations from a re-analysis of the deposited data

Results flagged for a closer look

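For 3 genes, the highest mutant value at 4 days stood far from the other libraries of its group, among 18 groups of 4 or 5 libraries examined. The rule used untransformed normalized counts, for which its rate by chance is unknown. On the log2 scale of the test, high values lie closer to the rest, and nothing is read from the number of flags. Cd80 reached 148 normalized counts in 1 of the 5 mutant libraries (CT070), with the next at 72.0. Ctla4 reached 32.4 in CT076, with the next at 15.2. Ido1 reached 39.2 in CT074, with the next at 22.9. These are 3 different libraries.

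In the table of wild type urothelium with or without BBN, which entered no test, 10 of the 10 members had at least 10 normalized counts in at least 4 of the 8 libraries.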

How the results depend on the processing

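No member was called under any alternative or with any library left out, in any of the 4 comparisons. Of 514 refits of single members 482 kept their direction and 32 reversed, none with a call. Scaling reversed Ido1 at 4 days (-0.0014 with upper-quartile and -0.085 with quantile scaling), and Tigit at 4 days was 0.41 in the table of 3 against 3 libraries. Ido1 in luminal against basal tumors was -0.41 with all 5 luminal libraries as 1 group. Lag3 reversed in the luminal domain against basal tumors (-0.052 with a pseudocount of 0.5, -0.10 with upper-quartile scaling) and between domains (-0.17 with a pseudocount of 5, -0.68 with quantile scaling). The cause was not tested.

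With each library left out in turn, values ranged at 4 days from -0.29 to 0.11 for Tigit and from -0.21 to 0.13 for Ido1. In luminal against basal tumors they ranged from -0.37 to 1.33 for Havcr2, from -3.37 to 0.29 for Tigit and from -0.88 to 4.38 for Ido1. In the luminal domain against basal tumors they ranged from -0.92 to 2.23 for Cd274, from -2.42 to 1.50 for Pdcd1, from -3.15 to 0.55 for Ctla4, from -1.09 to 1.2 for Lag3, from -3.59 to 0.081 for Tigit and from -2.96 to 2.79 for Ido1. Between domains they ranged from -0.085 to 0.98 for Cd274, from -1.14 to 1.21 for Lag3 and from -0.27 to 2.87 for Tigit.

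Of all genes, 269 were called at 4 days without a trend and 147 in the smaller table, against 467, and 129 (without CT066) to 596 (without CT071) with a library left out. In luminal against basal tumors 142 were called without a trend, 142 with 6 libraries alone in the fit and 513 with all 5 luminal libraries, against 338, and 3 (without CT126 or CT132) to 813 (without CT140) with a library left out. In the luminal domain 107 were called without a trend, against 377, and 0 (without CT128 or CT143) to 467 (without CT113). Between domains 20 were called without a trend, against 0, and 0 with each library left out. Where an arm was left with 2 libraries the spread was pooled. No paired analysis was possible because the columns carry library numbers, which the labels do not tie to replicate numbers. The depth behind single values is unknown.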

Other observations

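In the 8 libraries of wild type urothelium with or without 1 month of BBN, where the labels set CT103, CT104, CT105 and CT106 against the other 4 but do not say which received BBN, CT097, CT098, CT100 and CT101 held the 4 highest values of each of the 10 checkpoint genes. Among all 15905 genes with 10 or more normalized counts in at least 4 libraries, as all 10 had, these libraries held the 4 highest values for 23.3% and the sets did not overlap in either direction for 45.7%. Pdcd1lg2, Pdcd1, Ctla4 and Ido1 reached this minimum through the higher set alone, so that they had to differ. Nothing is read from the count over the 10 genes. Values are given in the order CT103, CT104, CT105 and CT106, then CT097, CT098, CT100 and CT101, as normalized counts. The ligand Cd274 was at 294, 345, 295 and 320 in the first 4 and 433, 511, 444 and 482 in the other 4. Cd80 was at 37.6, 31.8, 39.4 and 50.3 in the first 4 and 246, 618, 438 and 739 in the other 4. Cd86 was at 14.6, 24.0, 38.4 and 33.5 in the first 4 and 203, 164, 190 and 182 in the other 4. Pdcd1lg2 was at 0, 0, 0.82 and 0 in the first 4 and 74.0, 32.7, 33.7 and 40.9 in the other 4.

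Among the receptors, Pdcd1 was at 1.11, 0, 0.82 and 2.75 in the first 4 and 199, 56.9, 36.7 and 77.8 in the other 4. Ctla4 was at 0, 2.16, 0.84 and 0 in the first 4 and 44.9, 57.8, 31.4 and 117 in the other 4. Lag3 was at 9.95, 23.2, 23.8 and 19.2 in the first 4 and 221, 96.2, 81.9 and 152 in the other 4. Havcr2 was at 25.9, 13.5, 49.97 and 19.0 in the first 4 and 541, 590, 625 and 691 in the other 4. Tigit was at 12.1, 8.60, 4.08 and 0.91 in the first 4 and 75.2, 30.6, 47.0 and 75.2 in the other 4. The enzyme gene Ido1 was at 2.21, 4.26, 4.11 and 3.67 in the first 4 and 200, 1146, 524 and 722 in the other 4. For 9 of the 10 genes, against 11.9% of all genes, the widest gap on the log2 scale lay between these sets of 4 libraries with the same set higher, and for Tigit it lay above the lowest library. These 9 include Pdcd1lg2, Pdcd1, Ctla4 and Ido1, which reached the minimum through the higher set alone, and nothing is read from this count.

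Other genes were ordered likewise or not. Ptprc was at 67.1, 97.9, 196 and 171 in the first 4 and 1185, 540, 603 and 827 in the other 4. Csf1r was at 136, 176, 295 and 256 in the first 4 and 1205, 1343, 1546 and 1230 in the other 4. Cd8a was at 13.9, 11.5, 13.9 and 10.0 in the first 4 and 160, 17.4, 20.9 and 34.8 in the other 4. Nectin2 was at 6373, 5743, 5447 and 8498 in the first 4 and 4672, 6762, 3177 and 5836 in the other 4, and its ranges overlapped. No test was made of these libraries.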
